A study of Homo sapiens with 27 samples.

Results

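The inhibitor effect examined here was the difference in RNA level between 92.1 uveal melanoma cells treated with 100 nM of the focal adhesion kinase (FAK) inhibitor VS-4718 (FAKi) and cells given the DMSO vehicle, and the comparison asked how that effect changed between day 3 and day 14 of treatment. The contrast, called the interaction below, was the FAKi effect at day 14 minus the FAKi effect at day 3 on the log2 scale, and it rested on 12 of the 27 bulk RNA-seq libraries of the time course. Its 4 groups, of 3 libraries each, were DMSO day 3, FAKi day 3, DMSO day 14 and FAKi day 14. All groups were the same *GNAQ*-mutant human line, a single line grown in culture, so they shared its genotype and the groups differed in the agent and the time only. The remaining 15 libraries (DMSO day 0 and both agents at days 7 and 21) were used only to show the same genes at other times. The study's methods describe plating in triplicate and repeats of the whole experiment as biological replicates. The labels do not say which of these the replicate numbers mark, and the p-values measure the spread between these libraries. In bulk RNA, a smaller share of cells that express a gene cannot be told apart from less of its RNA per cell.

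FAK, encoded by *PTK2*, is a kinase that is recruited to integrin adhesions and passes signals on to growth and survival pathways, and in uveal melanoma it acts downstream of the mutant Gq protein. Most of the genes described first belong to the integrated stress response, in which kinases that sense amino acid shortage, unfolded protein, heme shortage or viral RNA slow general translation while the transcription factor ATF4 is made in greater amount. ATF4 then drives genes for amino acid uptake and synthesis, tRNA charging and redox balance through short elements that it binds with C/EBP partners. The other large group makes cholesterol, whose enzymes are switched on together by the transcription factor SREBP2 when the membranes of the endoplasmic reticulum hold little sterol.

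The 12 libraries held 13135695 to 43651551 counts each (median 27871779.5), and within each day the DMSO libraries were deeper than the FAKi libraries. The melanocyte markers were present in every library, with *MITF* at 150.4 to 257 CPM (counts scaled by library size), *SOX10* at 395 to 881 CPM, *MLANA* at 478 to 652 CPM and *TYRP1* at 4836 to 6738 CPM, while *DCT* lay at 2.49 to 28.5 CPM. Of the markers of other cells, 5 of 11 fibroblast genes, 5 of 10 epithelial genes, 1 of 10 leukocyte genes (*CD68*) and 1 of 9 endothelial genes (*EMCN*) exceeded 1 CPM in some library. DMSO day 3 replicate 1 lay nearer to the FAKi day 3 libraries than to its own group. Its root mean square log2 distance over 12711 genes was 0.503 and 0.725 to the other DMSO day 3 libraries. It was 0.274 to 0.366 to the FAKi day 3 libraries, and 0.426 between DMSO day 3 replicates 2 and 3. Mitochondrial transcripts took 18.1% of the counts of replicate 1 against 9.59% and 8.61% in the other DMSO day 3 libraries and 16.8% to 18.7% in the FAKi day 3 libraries. The share was 16.98% to 18.81% in DMSO at day 0 and 17.05% to 19.32% at day 7, closer to replicate 1 than to replicates 2 and 3. In DMSO it was 21.95% to 26.97% at day 14 and 5.49% to 9.75% at day 21. Which of the DMSO day 3 libraries is typical of DMSO cultures was not tested. The FAKi day 7 replicate 1 library, which is outside the contrast, lay at a distance of 0.123 from FAKi day 14 replicate 1, below every one of the 27 pairs of replicates in the series (0.152 to 0.725), and at 0.607 and 0.649 from the other FAKi day 7 libraries. Every day 3 effect includes DMSO day 3 replicate 1. Without it 76 of the 78 calls named by rule held, *FASN* and *CCN1* fell just short of the fold threshold (0.99 and 0.995), and 1 interaction, that of *MT-ATP8*, moved by more than 1.5 times. DMSO day 3 replicate 3 lay 0.795 to 0.841 from the FAKi day 3 libraries, and without it 26 of the 78 calls were lost. In that fit 26 stress response genes were still called lower and 9 cholesterol genes higher, and 99 genes in all had faded. Counts of many lists are also given without DMSO day 3 replicate 1 or without FAKi day 14 replicate 1. Outside the stress response and cholesterol lists, whole-list counts without DMSO day 3 replicate 3 are not given. The number of genes with a changed effect was 1104 with all 12 libraries. Of the DMSO day 3 libraries, leaving out replicate 1 gave 2787 and leaving out replicate 3 gave 658.

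Across the 25523 genes with at least 20 counts in the 12 libraries, the FAKi effect changed between the days for 1104 genes, at an adjusted p of at most 0.05 (edgeR quasi-likelihood test, Benjamini-Hochberg over all genes tested) and a change of more than 1 on the log2 scale. These were 4.33% of the genes tested. The effect became more positive for 567 (2.22%) and more negative for 537 (2.1%). In 511 genes the effect turned round, with an unadjusted p under 0.05 in opposite directions on the 2 days: 254 (0.995%) went from lower at day 3 to higher at day 14 under FAKi, and 257 (1.01%) from higher to lower. In 267 genes (1.05%) the effect grew or appeared, ending higher in 106 (0.415%) and lower in 161 (0.631%). In 326 genes (1.28%) it faded, having been higher at day 3 in 119 (0.466%) and lower in 207 (0.811%). On each day alone, the FAKi effect passed the same thresholds in 685 genes at day 3 (2.68%) and 433 at day 14 (1.7%). With no threshold on the size of the change, 2180 genes (8.54%) passed the adjusted p. The FAKi and DMSO libraries did not overlap in 29.1% of all genes tested at day 3 and in 27.2% at day 14. On both days they did not overlap in 195 of the 254 genes that reversed to higher and 208 of the 257 that reversed to lower.

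The 2 arms contributed unequally to these classes. Between day 3 and day 14, 3187 genes (12.5%) passed the same thresholds in DMSO cultures, 1306 of them higher (5.12%) and 1881 lower (7.37%), and 845 (3.31%) in FAKi cultures, 280 of them higher (1.1%) and 565 lower (2.21%). Among the 1104 genes whose effect changed, the DMSO arm moved further than the FAKi arm in 846 (76.6%), and this held for 95.4% of the faded genes and 80.4% of the reversed genes. It held for only 33.5% of the 161 genes whose effect grew in the lower direction, and that class contained most of the stress response genes. The DMSO day 3 libraries set both the day 3 effect and the DMSO change over time, so the 2 quantities share samples. Leaving out DMSO day 3 replicate 1 raised the number of genes with a changed effect to 2787, which held 1074 of the 1104, while leaving out FAKi day 14 replicates 1 and 2, one at a time, lowered it to 566 and 562, leaving out FAKi day 3 replicates 2 and 3 to 550 and 577, and leaving out DMSO day 3 replicate 3 to 658. No gene of the 1104 changed sign in these fits.

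**Figure D1:**
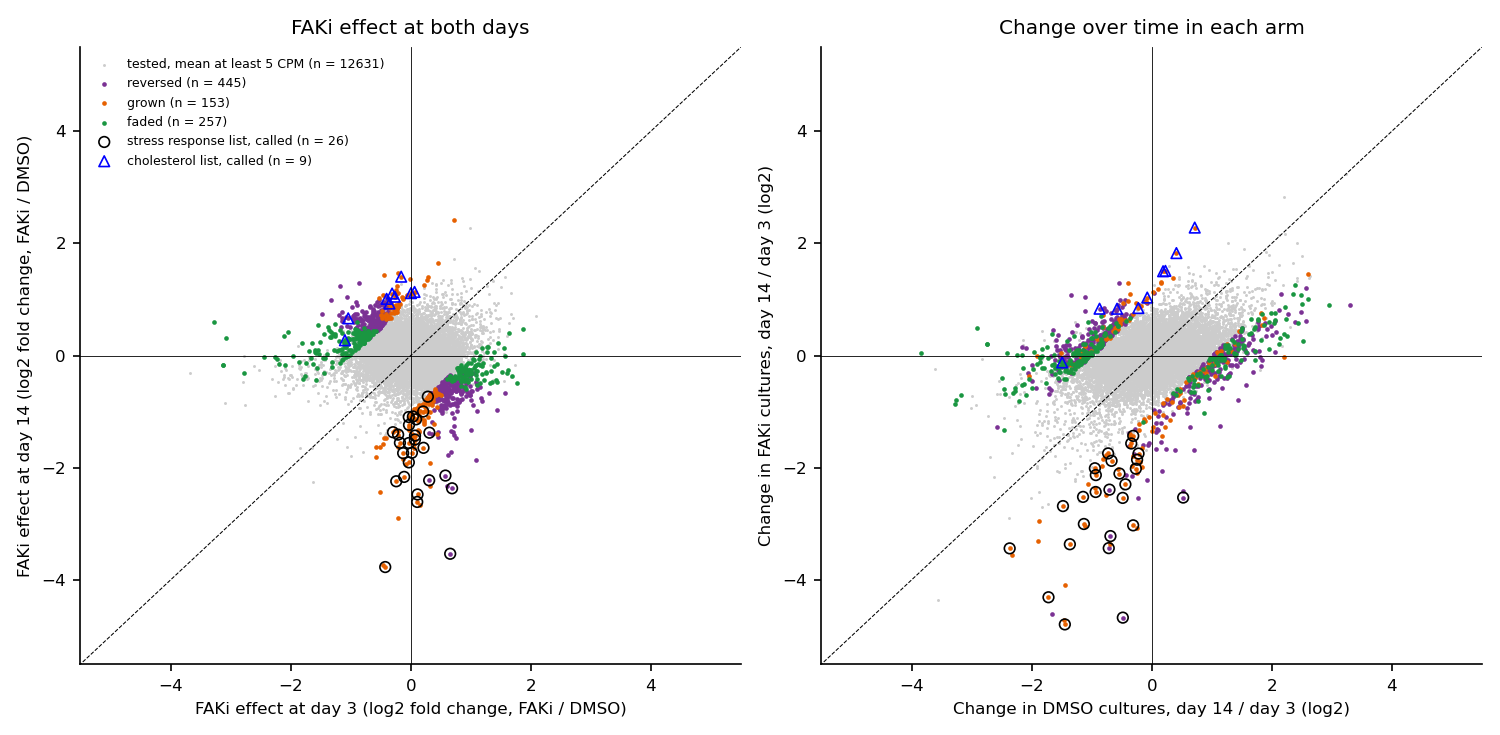
Each point is a gene with a mean of at least 5 CPM (n = 12631). On the left the FAKi effect at day 14 (log2 fold change, FAKi over DMSO) is plotted against that at day 3, and on the right the change from day 3 to day 14 in FAKi cultures against that in DMSO cultures, with genes coloured by class. The 26 called stress response genes (circles) sit near 0 or slightly above it at day 3 and far below 0 at day 14, and lie below the diagonal on the right, while most of the 9 called cholesterol genes (triangles) lie above it.

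Of the 33 gene lists, the integrated stress response list was the one in which the inhibitor effect changed most often. Of its 36 genes, all tested, the effect became more negative in 26 (72.2%) and more positive in 0, against 2.1% and 2.22% of all genes tested. The effect grew downward in 21 and reversed from higher to lower in 5 (*STC2*, *CTH*, *SLC7A11*, *ATF3* and *ALDH1L2*). Reversal rests on the unadjusted p of each day. The day 3 effects of *STC2*, *SLC7A11* and *ATF3* did not pass the adjusted p (0.149, 0.0726 and 0.146 by edgeR), and that of *CTH* did (0.0177). The median interaction of the list was -1.44, against 0.03 over all genes tested, with a median FAKi effect of -0.01 at day 3 and -1.46 at day 14. Between day 3 and day 14, 31 of the 36 fell in FAKi cultures (median change -2.27) and 11 in DMSO cultures (median -0.73), against 2.21% and 7.37% of all genes. In all 26 genes the FAKi arm moved further than the DMSO arm. The list was chosen with earlier results of these data known, and members named beyond the naming rule were named after their values were seen.

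ATF4 is known to act through composite elements that read TGATGNAA, so the 250 bases before each gene's start in RefSeq were searched for this motif on both strands. Among the 26 called genes, 21 had a promoter window and 6 of these (28.6%) held the motif, against 1104 of 35116 windows of all genes (3.14%), a number that equals that of the genes with a changed effect by coincidence. Over all members of the list, called or not, it was 7 of 31 windows (22.6%). The list was made of genes of a pathway that ATF4 drives, so the higher share does not bear on the change of the effect. A match is a description of the sequence and was not tested as a site. The windows that hold it are shown because the genes include *ASNS* and *CHAC1*, which are among those that changed most. Each has 60 bases in gene orientation on GRCh38.p14, with the motif or its reverse complement in capitals. The RefSeq starts differ from those of the counted transcripts, so that the motifs of *CEBPG* and *GARS1* lie inside the counted gene and the window of *ATF3* lies far upstream of it.
AARS1 (chr16:70289660-70289719, minus strand): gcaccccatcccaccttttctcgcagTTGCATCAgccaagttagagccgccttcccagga
ASNS (chr7:97872443-97872502, minus strand): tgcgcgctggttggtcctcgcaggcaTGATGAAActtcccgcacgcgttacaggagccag
ATF3 (chr1:212565190-212565249, plus strand): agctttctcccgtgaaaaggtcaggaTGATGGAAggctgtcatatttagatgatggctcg
CEBPG (chr19:33374045-33374104, plus strand): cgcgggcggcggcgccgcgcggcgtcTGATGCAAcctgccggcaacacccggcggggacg
CHAC1 (chr15:40953236-40953295, plus strand): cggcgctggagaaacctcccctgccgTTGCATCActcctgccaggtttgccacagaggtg
GARS1 (chr7:30594818-30594877, plus strand): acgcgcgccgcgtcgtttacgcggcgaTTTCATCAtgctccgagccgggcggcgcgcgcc

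Several of the genes act in amino acid synthesis and uptake. *ASNS* (chromosome 7, 97852128 to 97872131 on hg38, minus strand) encodes asparagine synthetase, and its promoter window above carries the motif in the gene's own orientation. In DMSO it was at 350.2, 486 and 537 CPM on day 3 and 172, 157 and 175 CPM on day 14. With FAKi it was at 336, 359.7 and 327 CPM on day 3 and only 10.7, 11.9 and 14.3 CPM on day 14, so that the groups overlapped at day 3, where the lowest DMSO value fell among the FAKi values, and lay far apart at day 14. The FAKi effect was -0.42 at day 3 and -3.77 at day 14, an interaction of -3.35 ± 0.22 (log2, SE, n = 3 per group, edgeR adjusted p = 4.92e-07). A second annotated gene, ENSG00000284707, shares most of its counted exons with *ASNS* on the same strand and gave almost the same interaction (-3.26), and reads of the pair cannot be told apart.

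*SLC7A11* (chromosome 4, 138164097 to 138242349, minus strand), the cystine importer that supplies glutathione synthesis, had the strongest shift of the list. It stood at 122, 83.5 and 52.8 CPM in DMSO and 125, 155 and 127 CPM with FAKi at day 3, so FAKi was higher in all 3 libraries. At day 14 the order was the opposite, with 47.7, 67 and 70.6 CPM in DMSO and 4.70, 5.28 and 6.06 CPM with FAKi. The effect went from 0.66 to -3.53 (interaction -4.19 ± 0.34, edgeR adjusted p = 1.36e-06). *CTH* (chromosome 1, 70411268 to 70439851, plus strand), which makes cysteine from cystathionine, turned round in the same way. It was at 60.2, 50.5 and 45.7 CPM in DMSO and 75.2, 82.3 and 76.2 CPM with FAKi at day 3, and at 32.1, 29.5 and 33.7 and 6.85, 6.32 and 8.48 CPM on day 14, with no overlap on either day and an interaction of -2.72 ± 0.2 (edgeR adjusted p = 8.04e-07). *CBS*, the enzyme before it in the same route, was called with an interaction of -1.53.

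In serine and one-carbon metabolism, *PSAT1*, an enzyme of serine synthesis, lay at 360.0, 495 and 427 CPM in DMSO and 397, 402 and 389 CPM with FAKi at day 3, where the groups overlapped. By day 14 it was at 311, 287 and 319 CPM in DMSO and 63.5, 72.1 and 69 CPM with FAKi. Its interaction was -2.05 ± 0.19 (edgeR adjusted p = 6.70e-06). The last enzyme of that route, *PSPH*, was called at -1.06, the mitochondrial folate enzymes *MTHFD2*, *SHMT2* and *ALDH1L2* at -1.5, -1.12 and -3.05, and *PCK2*, the mitochondrial phosphoenolpyruvate carboxykinase, at -1.87. *PHGDH*, the first enzyme of serine synthesis, was nearly absent from these cells (at most 0.292 CPM), and its interaction could not be resolved. The cationic amino acid carrier *SLC7A1* was called at -1.02, whereas *SLC7A5* and *SLC3A2*, the subunits of the large neutral amino acid carrier, had interactions of -0.26 and 0.15 and were not called.

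Of the tRNA synthetases on the list, which attach amino acids to their tRNAs, 5 of 6 were called. *GARS1* (chromosome 7, 30594832 to 30634029, plus strand), the glycyl-tRNA synthetase, was at 639, 597 and 644 CPM in DMSO and 659.7, 711 and 808 CPM with FAKi at day 3, and at 484, 449 and 454 and 144, 143 and 157 CPM on day 14 (interaction -1.86 ± 0.17). *SARS1*, *WARS1*, *EPRS1* and *AARS1* had interactions of -1.75, -1.38, -1.23 and -1.21. *MARS1* passed the adjusted p but not the fold threshold (-0.84, edgeR adjusted p = 0.00679). *XPOT*, which exports tRNAs from the nucleus and was not on the list, was named by its class. It reversed from 0.35 (edgeR adjusted p = 0.0995) to -1.39. At day 14 it was at 114, 119.8 and 125 CPM under FAKi against 309, 326 and 308 CPM in DMSO. Its interaction passed (edgeR adjusted p = 4.63e-05).

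Most transcription factors of the pathway fell as well in FAKi cultures. *ATF4* mRNA (chromosome 22, 39520564 to 39522683, plus strand) was at 1047, 1082 and 1345 CPM in DMSO and 1067, 1031 and 1085 CPM with FAKi at day 3, where the groups overlapped, and at 1031, 915 and 988 and 300.3, 294 and 285 CPM on day 14. The FAKi day 14 libraries alone stood apart, and the interaction was -1.61 ± 0.18 (edgeR adjusted p = 7.61e-05). *ATF3*, a stress-induced factor of the same family, reversed from 0.31 (edgeR adjusted p = 0.146) to -1.38. *CEBPG*, a partner of ATF4, and *DDIT3* (CHOP) had interactions of -1.57 and -1.2. *CEBPB* passed the adjusted p with an interaction of -0.95, and *ATF5* had 0.29 and was not called.

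Among the effectors, *CHAC1* (chromosome 15, 40953471 to 40956512, plus strand), which degrades glutathione, was at 178, 138 and 161 CPM in DMSO and 155, 179 and 184 CPM with FAKi at day 3. At day 14 it was at 51.4, 42.9 and 50.8 CPM in DMSO and 10.1, 7.88 and 8.09 CPM with FAKi, an interaction of -2.59 ± 0.2 (edgeR adjusted p = 1.33e-06). The stress-induced chromatin protein gene *NUPR1* was at 211, 231 and 216 CPM in DMSO and 38.1, 34.6 and 35.1 CPM with FAKi at day 14, with an interaction of -2.72 ± 0.22, and the annotated gene ENSG00000288656 that overlaps it on the same strand gave -2.81. The mTORC1 inhibitors *DDIT4* and *SESN2* had interactions of -2.0 and -1.21, and the pseudokinase *TRIB3*, which feeds back on ATF4, had -1.07. The secreted glycoprotein gene *STC2* (chromosome 5, 173314723 to 173328414, minus strand) was at 66.3, 62.7 and 56.2 CPM in DMSO and 69.6, 84.3 and 75.3 CPM with FAKi at day 3, and at 37.4, 41.7 and 35.8 and 7.24, 8.71 and 8.68 CPM on day 14 (interaction -2.53 ± 0.19, edgeR adjusted p = 8.04e-07). *VEGFA* and *PMAIP1* (NOXA), which were not on the list, moved alike in these libraries, from 0.06 to -1.64 and from 0.76 to -1.47. *GDF15*, a secreted stress cytokine, had already lost most of its RNA in both arms by day 14 (FAKi change -4.35, DMSO change -3.56) and its effect did not pass as changed (-0.8, edgeR adjusted p = 0.327).

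The count for this list varied little with the libraries used. Over the 12 fits that left out 1 library each, 23 to 27 of its 36 genes were called lower, and 0 higher. Without DMSO day 3 replicate 1 it was 23 and without FAKi day 14 replicate 1 it was 27, and after a correction for the length and GC content of the transcripts, made library by library, it was 25.

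The libraries outside the contrast showed when these genes were low. The geometric mean over the 26 called genes, on a scaling of all 27 libraries, was 159 to 166 CPM in DMSO at day 0, 171 to 176 CPM on day 3, 158 to 162 CPM on day 7, 99.6 to 104 CPM on day 14 and 171 to 176 CPM on day 21. With FAKi it was 177 to 190.2 CPM on day 3, 29.6 to 30.3 CPM on day 14 and 139 to 144 CPM on day 21, so that at day 21 no library was near the level of day 14. At day 7 the FAKi libraries split. Replicates 2 and 3 were at 166 and 160.0 CPM, among the DMSO libraries of that day, and replicate 1 was at 29.9 CPM, among the FAKi day 14 libraries. *ASNS* followed the same order, with 12.4 CPM in FAKi day 7 replicate 1 and 303 and 308 CPM in replicates 2 and 3. The median FAKi effect of the list at day 7 was -0.41 with all 3 replicates and -0.01 without replicate 1, and at day 21 it was -0.26, with 29 of 36 genes below 0. Whether FAKi day 7 replicate 1 is a separate culture of that day was not tested.

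**Figure D2:**
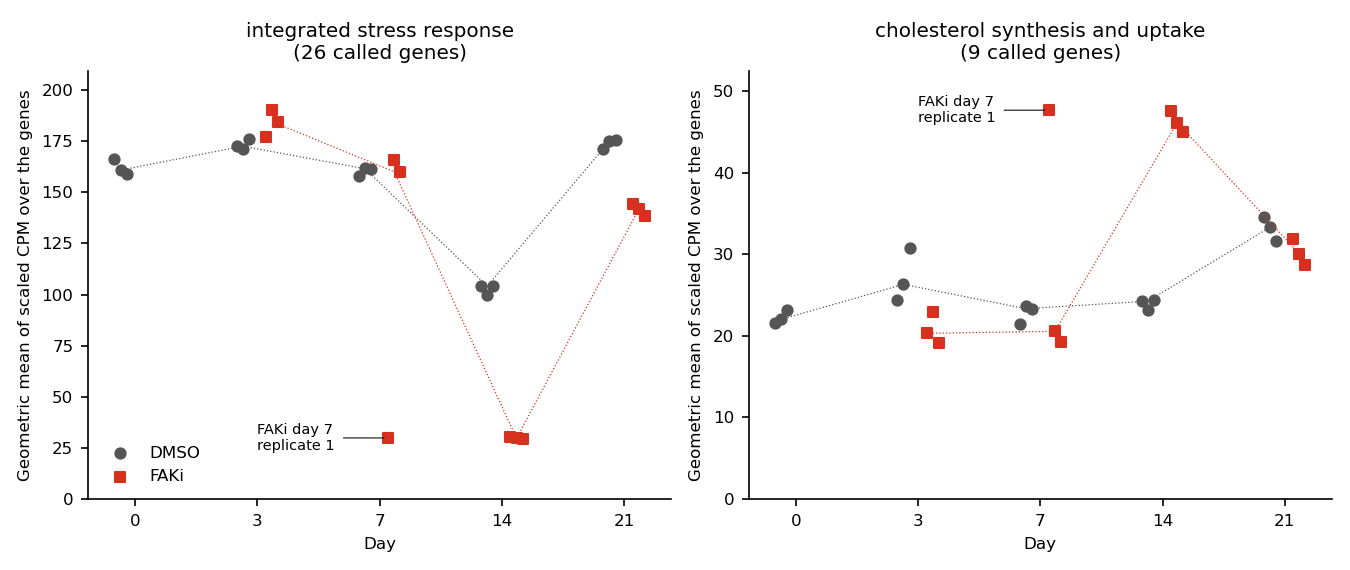
Geometric mean of scaled CPM over the called genes of the stress response list (left, 26 genes) and the cholesterol list (right, 9 genes) in each of the 27 libraries, by day, with DMSO in grey and FAKi in red and dotted lines through the group medians. The stress response genes are at 29.6 to 30.3 CPM in the FAKi day 14 libraries and 99.6 to 104 CPM in DMSO of that day, the cholesterol genes are highest in the same FAKi libraries, and FAKi day 7 replicate 1 sits with them in both panels.

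Cholesterol synthesis was, of the 33 lists, the one with the highest share of genes whose effect became more positive. Of 24 tested genes (25 listed), 9 were called higher (37.5%) and 0 lower, against 2.22% and 2.1% of all genes tested, with a median interaction of 0.73. The median FAKi effect was near 0 at day 3 and 0.78 at day 14, when all 24 genes were above 0. Those named here encode steps from mevalonate to cholesterol: *MVK* and *MVD* early, *SQLE* at the first oxygenation of squalene, and *MSMO1*, *NSDHL*, *HSD17B7*, *TM7SF2* and *DHCR7* in the later steps.

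*MSMO1* (chromosome 4, 165327669 to 165343164, plus strand), the methylsterol monooxygenase that starts the removal of methyl groups from the sterol ring, was at 14.5, 23.8 and 24 CPM in DMSO and 17.3, 18.1 and 16.3 CPM with FAKi at day 3, and at 23.1, 24.5 and 23.2 and 47.1, 48.8 and 50.6 CPM on day 14. The groups overlapped at day 3 and did not at day 14, and the interaction was 1.31 ± 0.23 (edgeR adjusted p = 0.00378), a call that held in all 27 alternatives. *DHCR7* (chromosome 11, 71434411 to 71448393, minus strand) reversed, from 78.6, 62.1 and 69.8 CPM in DMSO and 53.9, 57.1 and 48.4 CPM with FAKi at day 3 to 44, 44.1 and 53.1 and 98.4, 93.7 and 92.2 CPM on day 14 (interaction 1.41 ± 0.18, edgeR adjusted p = 3.60e-04). *SQLE* (chromosome 8, 124998505 to 125022283, plus strand) reversed too: its effect went from -1.04 to 0.66. Its DMSO day 3 libraries spread widely, at 308, 506 and 411 CPM, against 231, 178 and 186 CPM with FAKi on that day and 232, 225 and 213 and 338, 344 and 379.7 CPM in DMSO and FAKi at day 14.

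Other called enzymes had interactions of 1.57 (*HSD17B7*), 1.42 (*MVD*), 1.28 (*NSDHL*) and 1.11 (*MVK*), all with effects near 0 at day 3. *TM7SF2* was called at 1.37 because its day 3 effect of -1.1 faded. *HMGCS1*, an early enzyme and SREBP2 target, went from 43.2, 54.6 and 57 CPM on day 3 to 355, 362 and 381 CPM on day 14 under FAKi, but it also moved in DMSO, from 35.7, 37.5 and 27.5 to 152, 170.2 and 140.2 CPM, and its interaction of 0.63 did not pass (edgeR adjusted p = 0.0623). None of the 7 called genes with a promoter window held TCACNCCAC, a form of the sterol element that 0.883% of all windows hold, or the TGATGNAA motif.

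The geometric mean over the 9 called genes was 44.9 to 47.5 CPM in the FAKi day 14 libraries and 47.6 CPM in FAKi day 7 replicate 1, and 19.2 and 20.5 CPM in the other FAKi day 7 libraries. In DMSO it was 24.4 to 30.8 CPM on day 3, 23.2 to 24.4 CPM on day 14 and 31.6 to 34.6 CPM on day 21, and FAKi day 21 libraries were at 28.6 to 31.8 CPM. The median FAKi effect over the 24 tested genes at day 7 was 0.36 with all replicates and -0.20 without FAKi day 7 replicate 1, and -0.06 at day 21. Over the fits without 1 library, 8 to 10 genes were called higher. *SCARB1*, the receptor for high density lipoprotein that exchanges cholesterol with the cell and was named by its class, reversed from -0.57 to 0.96: it was at 201, 190.1 and 239 CPM in DMSO and 144, 153 and 129 CPM with FAKi at day 3, and at 106, 104 and 116 and 207, 212 and 214 CPM on day 14 (edgeR adjusted p = 1.06e-04). In fatty acid synthesis 1 of 13 tested genes was called (7.69%, against 4.33% of all genes tested and 6.77% of those with at least 5 CPM). It was *FASN* (fatty acid synthase), with an interaction of 1.28. Between the days *FASN* changed by -1.11 in the DMSO arm and 0.17 in the FAKi arm.

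The ERK pathway list held feedback regulators and target genes of the MAP kinase route that lies downstream of mutant Gq. Against 2.1% and 2.22% of all genes tested, 6 of its 20 genes were called lower and 1 higher (35%). The 3 members of the PEA3 group of ETS factors were all among them. *ETV4* (chromosome 17, 43527846 to 43545671, minus strand) was at 171, 124 and 160.4 CPM in DMSO and 112, 112 and 96.2 CPM with FAKi at day 3, already without overlap. At day 14 it was at 69.6, 66.9 and 73.2 CPM in DMSO and 13, 12.5 and 13.5 CPM with FAKi, so its effect grew from -0.51 to -2.43 (interaction -1.92 ± 0.19, edgeR adjusted p = 2.14e-05). Its effect was -1.48 at day 7 with all replicates, -1.02 without FAKi day 7 replicate 1, and -2.23 at day 21. *ETV5* and *ETV1* had interactions of -1.48 and -1.54, and *ETV1* reversed, from 0.68 to -0.86, a call that the length and GC correction ended.

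The ERK phosphatase *DUSP6*, the RAS inhibitor *SPRED1* and *PHLDA1* were called lower at -1.03, -1.11 and -1.0, and the call of *DUSP6* was lost in 7 of 27 alternatives. *EGR1*, an immediate early factor, was the gene called higher. It was at 22.7, 9.62 and 11 CPM in DMSO and 20.3, 30.7 and 21.1 CPM with FAKi at day 3, and at 3.59, 2.99 and 3.95 and 22.6, 13.1 and 20.4 CPM on day 14, so its day 14 effect came with low DMSO values (interaction 1.69 ± 0.4, edgeR adjusted p = 0.0183, and 1.20 without DMSO day 3 replicate 1). The call of *EGR1* was lost with voom and without each of FAKi day 3 replicates 1 and 3 and FAKi day 14 replicate 1. *DUSP4*, *SPRY2*, *SPRY4*, *MYC* and *CCND1* were not called, with interactions of 0.39, 0.31, -0.47, 0.08 and -0.29. The median of the whole list was -0.21. After correction for transcript length and GC content 2 of its genes were called lower, and without FAKi day 14 replicate 1 it was 4.

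Among the genes that reversed from lower to higher, the cytoskeleton was represented by *ACTB* and *FLNA* in the 6 named by rule. *ACTB*, cytoplasmic beta-actin (chromosome 7, 5527156 to 5530601, minus strand), was at 852, 1009.8 and 1141 CPM in DMSO and 648, 651 and 679 CPM with FAKi at day 3. At day 14 it was at 507, 438 and 517 CPM in DMSO and 956, 899.7 and 874 CPM with FAKi, with no overlap on either day and opposite orders (interaction 1.5 ± 0.19, edgeR adjusted p = 2.15e-04). *FLNA*, the actin crosslinker filamin A, went from -0.53 to 0.99, and *MFSD12*, a transporter of the pigment organelle, from -0.61 to 0.8, though part of its counted exons lies opposite another annotated gene. In *ACTB* and *FLNA* the DMSO arm changed by -1.04 and -0.94 between the days and the FAKi arm by 0.47 and 0.57. In *MFSD12* the DMSO arm changed by -1.41 and the FAKi arm by 0.003. The semaphorin receptor *PLXND1* was the 1 gene called of the 28 semaphorins and plexins tested (3.57%, below the 4.33% of all genes tested). Its effect reversed from -0.36 (edgeR adjusted p = 0.14) to 1.01. Its mean fell from 49.6 to 18.9 CPM in DMSO and was 38.5 and 38.1 CPM with FAKi. Without DMSO day 3 replicate 1, 2 genes of this list were called higher and 1 lower.

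In the opposite direction, *DDR2* (chromosome 1, 162632465 to 162787400, plus strand), a receptor tyrosine kinase for fibrillar collagen, was at 333, 229.8 and 139 CPM in DMSO and 358, 412 and 381 CPM with FAKi at day 3. At day 14 it was at 194, 229 and 240.0 and 82.9, 80.1 and 84.6 CPM, which is lower in all 3 FAKi libraries (interaction -2.14 ± 0.3, edgeR adjusted p = 6.62e-04, and -2.48 without DMSO day 3 replicate 1). The highest DMSO day 3 value belonged to replicate 1 and lay close to the lowest FAKi value of that day. *DDR2* was the 1 receptor tyrosine kinase called lower of 23 tested, and *FGFR3* and *FGFR4*, called higher (1.12 and 1.28), had day 3 effects that faded. The kinases called were 13% of those tested, against 4.33% of all genes tested. Without DMSO day 3 replicate 1 there were 4 of these kinases called lower and 2 higher, and without FAKi day 14 replicate 1 there was 1 each way. The call of *FGFR3* was lost in 8 of 27 alternatives. *UQCRB*, a subunit of respiratory complex III, and *DLC1*, a RhoGAP of adhesions, also reversed to lower (-1.24 and -1.03). At day 21, which the contrast did not use, the median FAKi effect was -0.38 over the genes that had reversed to higher and 0.31 over those that had reversed to lower, which is the order of day 3. The DMSO day 21 libraries were also split, with replicates 1 and 2 at a distance of 0.641 and 0.667 from replicate 3. Their mitochondrial shares were 5.49%, 5.49% and 9.75%, against 10.7% to 11.2% in the FAKi day 21 libraries. The part of these library differences in the order at day 21 was not tested.

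**Figure D3:**
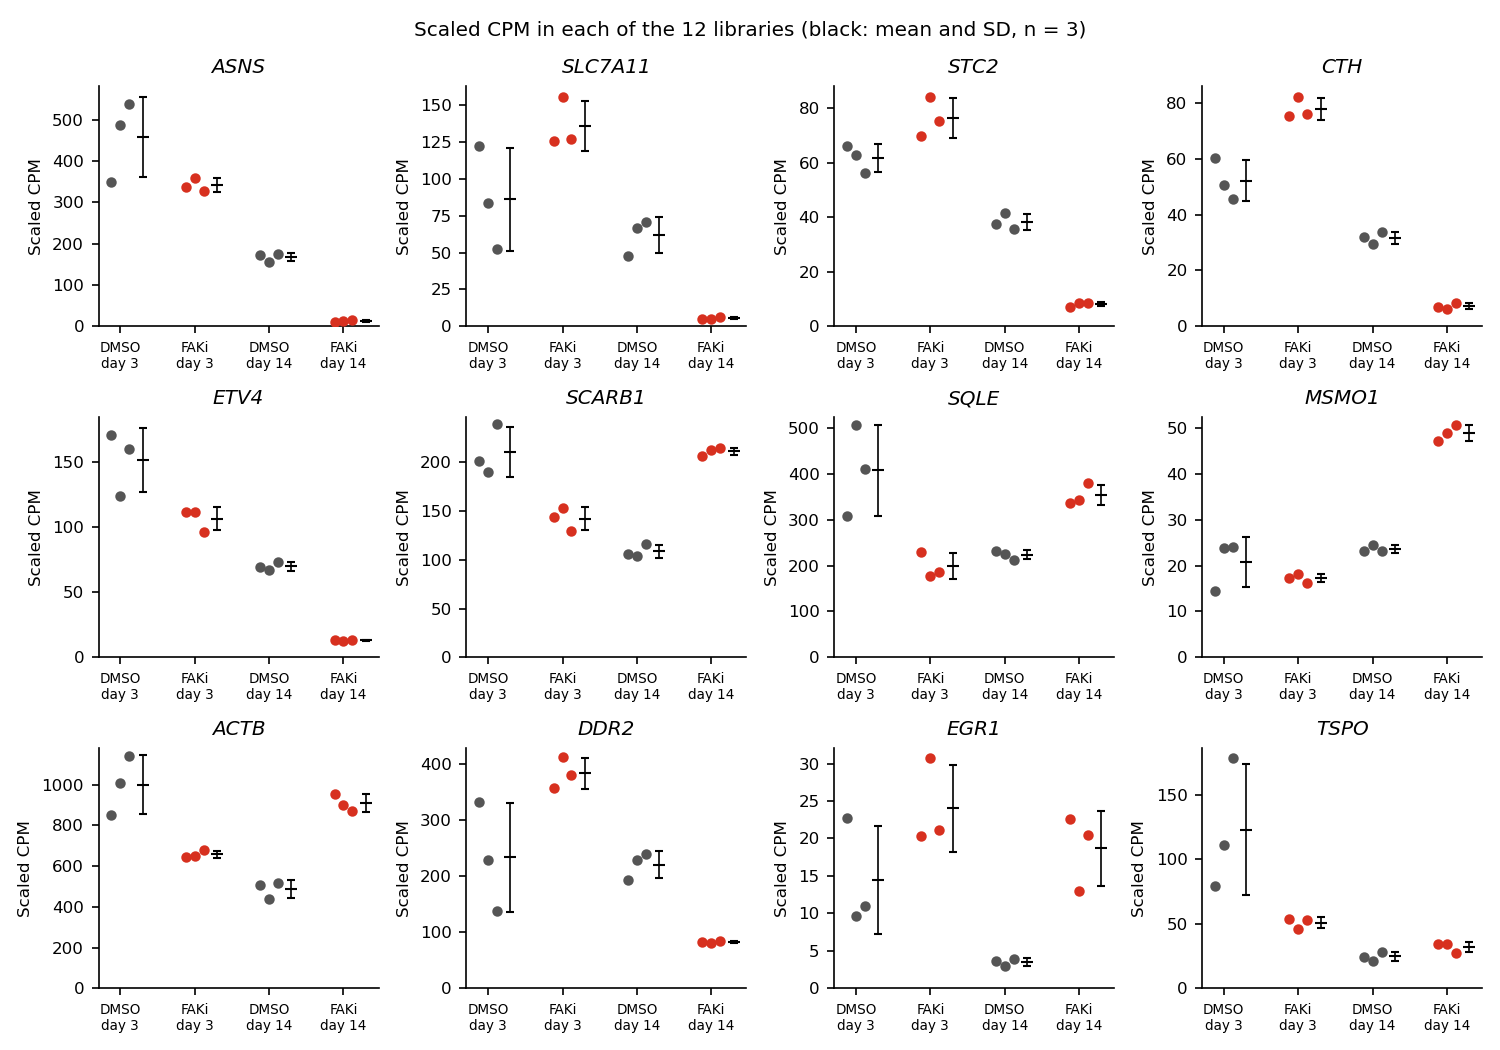
Scaled CPM of 12 genes in each of the 12 libraries, by group (DMSO grey, FAKi red, 3 libraries each), with the mean and SD in black. *ASNS*, *SLC7A11*, *STC2*, *CTH*, *ETV4* and *DDR2* are lowest in the FAKi day 14 libraries, *MSMO1* is highest there, *SCARB1* and *ACTB* swap the order of DMSO and FAKi between the days, *EGR1* is lowest in DMSO day 14, and *TSPO* is highest in DMSO day 3.

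Genes whose effect appeared upward were fewer. *SHB*, an adapter of receptor tyrosine kinases, was at 7.93, 6.78 and 8.0 CPM in DMSO and 7.21, 7.09 and 5.23 CPM with FAKi at day 3, and at 6.05, 6.48 and 4.77 and 15.5, 17.8 and 14.5 CPM on day 14 (interaction 1.68 ± 0.27, edgeR adjusted p = 0.00223). The endocytic protein gene *HIP1R*, the protease gene *PCSK7*, the protein disulfide isomerase gene *PDIA4* and the dynein-2 chain gene *DYNC2I2* had interactions of 1.15, 1.2, 1.01 and 1.46. A share of 59.2% of the counted exons of *PCSK7* overlap *TAGLN* on the other strand, and the counting command gave no strand option. Of the 19 tested genes of the TGF-beta, BMP and ID list, *ID3*, an inhibitor of basic helix-loop-helix factors and BMP target, was called higher, with 30.3, 21.7 and 25.4 CPM in DMSO and 70.6, 70.6 and 61.9 CPM with FAKi at day 14 against 23.7, 21.5 and 31 and 26.6, 35.2 and 31.6 CPM on day 3 (interaction 1.1 ± 0.23), a call lost with voom, without DMSO day 3 replicate 3 and with the length and GC correction. *NOG*, the BMP antagonist noggin, was the other, and *LTBP1* was called lower (-1.65). *NOG* and *LTBP1* were named after their values were seen. The calls were 15.8% of the tested genes of this list, against 4.33% of all genes tested. *NOG* was at 0.0315 to 0.472 CPM in the 9 libraries of the other groups, a level near that of 3 counts (0.0687 to 0.228 CPM), and at 6.04, 4.20 and 4.53 CPM in the FAKi day 14 libraries (interaction 5.48 ± 0.95, edgeR adjusted p = 0.00329).

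Of the endoplasmic reticulum chaperones and their partners, 5 of 23 were called higher (21.7%, against 2.22% of all genes tested). They were *SDF2L1*, *PDIA4*, *CRELD2*, *SELENOK* and *SEC61B*. *SDF2L1*, a cofactor of BiP, was at 10.1, 15.4 and 22.2 CPM in DMSO and 6.25, 8.44 and 6.33 CPM with FAKi at day 3, and at 6.67, 5.44 and 6.53 and 14.9, 16.6 and 12.5 CPM on day 14 (interaction 2.42 ± 0.34, edgeR adjusted p = 6.62e-04). The list median was 0.56, with 19 of 23 genes above 0 at day 14. Without FAKi day 14 replicate 1 there were 2 calls, with the length and GC correction 3, and the calls of *PDIA4* and *SELENOK* were lost in 12 and 13 of 27 alternatives. In glycolysis 3 of 23 genes were called higher (13%, against 2.22% of all genes tested). They were *ENO1*, *TPI1* and *LDHA* (1.14, 1.08 and 1.04), and the list median was 0.61. There was 1 call without FAKi day 14 replicate 1 and 1 with the length and GC correction, and the calls of *LDHA* and *TPI1* were lost in 10 and 6 of 27 alternatives. Of 25 tested pigment genes 1 was called higher and 1 lower (8%, against 4.33% of all genes and 6.77% of those with at least 5 CPM), with a list median of -0.01. Without DMSO day 3 replicate 1 it was 1 higher and 4 lower, and without FAKi day 14 replicate 1 it was 1 higher and 0 lower. *PMEL*, the fibril protein of the melanosome, was called higher (1.05) with 3010.2, 2589 and 3041 CPM in DMSO and 4792, 5149 and 4961 CPM with FAKi at day 14, and *DCT*, dopachrome tautomerase, lost its day 3 effect of 1.87 (0.03 at day 14). Between the days *PMEL* changed by -0.88 in the DMSO arm and 0.17 in the FAKi arm. The interaction of *DCT* was -1.84, and -2.61 without DMSO day 3 replicate 1, and its call was lost in 7 of 27 alternatives.

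In each of the 12 faded genes named by rule, DMSO day 3 was the group furthest from the others. *TSPO*, a cholesterol-binding protein of the outer mitochondrial membrane, was at 79.4, 111 and 178 CPM in DMSO and 53.8, 46.1 and 53 CPM with FAKi at day 3, and at 24.6, 21.4 and 28.5 and 34.7, 34.4 and 27.7 CPM on day 14 (interaction 1.65 ± 0.3, edgeR adjusted p = 0.00495). DMSO day 3 replicate 1 was the lowest of its group, on the side of the FAKi libraries. *TMEM132A*, *B3GAT3*, *C8orf82* and *ADAM15*, and the pseudogene ENSG00000212695, faded from lower in the same manner, with interactions of 1.39, 1.44, 1.17, 1.03 and 2.09. Pseudogenes made up 64 of the 207 genes in this class and 21 of the 119 that faded from higher. They were 17 of the 254 genes that reversed to higher and 26 of the 257 that reversed to lower. Of the genes whose effect grew, they were 13 of the 106 higher and 7 of the 161 lower. The share of pseudogenes among all genes tested is not given here. From higher, the chromatin protein gene *HMGB2*, the diacylglycerol kinase gene *DGKI*, *UACA*, the transcription factor gene *SNAI2* (SLUG), the hyaluronan receptor gene *HMMR* and the uncharacterised ENSG00000259828 faded, at -1.19, -1.51, -1.09, -1.28, -1.14 and -1.57. *SNAI2* went from 92.9, 58.9 and 55 CPM in DMSO at day 3 to 314, 286 and 256 CPM on day 14, and was at 133, 163 and 157 and 243, 257 and 268 CPM with FAKi.

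Among lists of housekeeping genes, the counts of calls moved with single libraries, beside 4.33% of all genes tested and 6.77% of those with at least 5 CPM. Of 77 cytosolic ribosomal protein genes, 4 were called higher (5.19%), near those shares, all faded, among them *RPL10*, *RPS18* and *RPL13*. There were 17 called higher without DMSO day 3 replicate 1, and 0 higher and 1 lower without FAKi day 14 replicate 1 and likewise with the length and GC correction. Of 69 nuclear-encoded oxidative phosphorylation genes, 6 were called higher and 1 lower (10.1%), of which 4 reversed and 3 faded. It was 16 higher and 1 lower without DMSO day 3 replicate 1, and 3 higher and 1 lower without FAKi day 14 replicate 1 and with the length and GC correction. Of the 13 mitochondrial chromosome mRNAs, 2 were called lower (15.4%), *MT-ATP8* and *MT-ND6*, both faded, with a list median of -1.11. Without DMSO day 3 replicate 1 it was 10, with voom 11, and 0 without FAKi day 14 replicate 1, with the length and GC correction and with DESeq2, and both calls were also lost with the replicate block over both days. *MT-ATP8* was at 4148, 1146 and 774 CPM in the DMSO day 3 libraries, the first of them near the 4027, 6293 and 6192 CPM of the FAKi day 3 libraries, and its interaction of -1.91 was -2.98 without that library. Of the mitosis list, 3 of 35 were called lower (8.57%), *CENPE*, *TOP2A* and *CENPF*, all faded from higher at day 3, with 6 called without DMSO day 3 replicate 1, 1 without FAKi day 14 replicate 1, and 0 after correction for length and GC content. The calls of *TOP2A* and *CENPF* were each lost in 10 of 27 alternatives. Without DMSO day 3 replicate 3, the calls of *RPL10*, *RPS18*, *RPL13*, *MT-ND6*, *TOP2A* and *CENPF* were lost, and those of *MT-ATP8* and *CENPE* held. Of the oxidative phosphorylation genes, *NDUFB2*, *ATP5MC1* and *COX8A* lost their calls in that fit and *UQCRB* kept its call. In these lists the changed effect moved with the mitochondrial share and the GC and length profile of the DMSO day 3 libraries, and their part in the result was not tested.

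In the remaining lists few genes were called or none. There were 0 calls among 36 G1/S and DNA replication genes, 9 CDK inhibitors and D cyclins, 25 focal adhesion plaque genes, 17 integrin subunits, 20 Eph receptors and ephrins, 20 heat shock genes and 15 genes of MHC class I presentation, by edgeR's quasi-likelihood test. In the same order 8, 2, 7, 5, 5, 7 and 2 of them had an unadjusted p under 0.05, and 3, 1, 4, 1, 0, 3 and 0 passed the adjusted p alone. Of all genes tested, 24.9% had an unadjusted p under 0.05 and 8.54% passed the adjusted p alone. DESeq2 called 0 in each of these lists, and voom with sample weights called 1 in the focal adhesion, Eph and MHC lists and 0 in the others. Without DMSO day 3 replicate 1, 3 integrin subunits and 1 focal adhesion gene were called lower and 1 Eph or ephrin gene each way, with 0 in the other 4 lists. Beside the 4.33% of all genes called, the share was 12.5% of p53 targets, 12.5% of YAP and TEAD targets, 12% of the AP-1 list and 11.5% of hypoxia genes, and it lay close to the background at 6.06% of Gq pathway, 3.85% of histone, 2.94% of interferon and 2.56% of matrix genes. Among p53 targets 3 of 24 were called lower (*SESN2*, *GADD45A* and *BTG2*), among hypoxia genes 3 of 26 (*STC2*, *VEGFA* and *PDK1*), among Gq pathway genes 2 of 33 (*DGKI* and *PLCB4*), and of the YAP and TEAD targets *GADD45A* and *DLC1* were lower and *CCN1* higher of 24. Of the AP-1 list *EGR1* was higher and *ATF3* and *BTG2* lower of 25. *IFI44* was the 1 of 34 interferon genes called, lower (-1.59), *COL18A1* the 1 of 39 matrix genes, higher (1.01), and *H2BC12* the 1 of 26 histone genes, higher (1.84). Without DMSO day 3 replicate 1, 5 p53 targets and 5 Gq pathway genes were called lower and 3 histone genes higher. In that fit 2 interferon genes were called each way, and 1 matrix gene was called higher and 2 lower. Without FAKi day 14 replicate 1 there was 1 Gq pathway call, and 0 interferon or matrix calls. *EMCN*, the one endothelial marker present, grew lower, from 0.04 to -1.42. Of all calls named by rule, 19 were lost in 6 to 19 of the 27 alternatives. In this group of lists they included *COL18A1* (15), *CCN1*, *PLCB4* and *PDK1* (10 each) and *BTG2* (7).

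A set of 11 genes, chosen with earlier results of these data known and including the semaphorins that the study examined under FAKi, had effects of the same sign on both days, and 0 of them were called for a change between them by edgeR, with 4 at an unadjusted p under 0.05. That p was reached by 24.9% of all genes tested. The day 14 effects of *SEMA6A*, *SEMA6D*, *PLXNC1* and *ATP7A* did not pass the adjusted p on their own by edgeR. The study, which used DESeq2, reports some semaphorin and plexin genes as upregulated on every treated day. It places *SEMA6A* and *SEMA6D* among the genes changed on all of those days. The test differs from the one used here, and day 14 effects by DESeq2 are not given here. Without DMSO day 3 replicate 1, *SEMA6A* and *ATP7A* were called as less positive on day 14, at -1.01 and -1.06, and DESeq2 and voom called 0 of the 11. *SEMA6A*, encoding a transmembrane semaphorin, was at 525, 291 and 250.3 CPM in DMSO and 688, 838 and 720.1 CPM with FAKi at day 3, and at 682, 842 and 718 and 1032, 1041 and 998 CPM on day 14. FAKi was higher on both days without overlap, and the interaction was -0.62 ± 0.29 (edgeR adjusted p = 0.191). *PLXNC1*, *DAB2*, *ATP7A*, *SEMA6D* and *CEMIP* were higher on both days with interactions of -0.71, -0.57, -0.75, -0.37 and -0.5. *EPHA4* and *ID2* had nearly equal effects, 1.37 and 1.32, and 0.83 and 0.75. *ADGRG1*, *PLK2* and *RGS2* were lower under FAKi on both days, with interactions of -0.63, 0.18 and 0.2. The drug's target *PTK2* had effects of 0.13 and -0.04, and *GNAQ*, the mutated oncogene of this line, 0.15 and -0.16. The sign of the interaction of *EPHA4*, *ID2*, *RGS2*, *PTK2* and *GNAQ*, all near 0, turned in some alternative fits. A p that misses the threshold does not show that the effect was the same on both days.

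**Figure D4:**
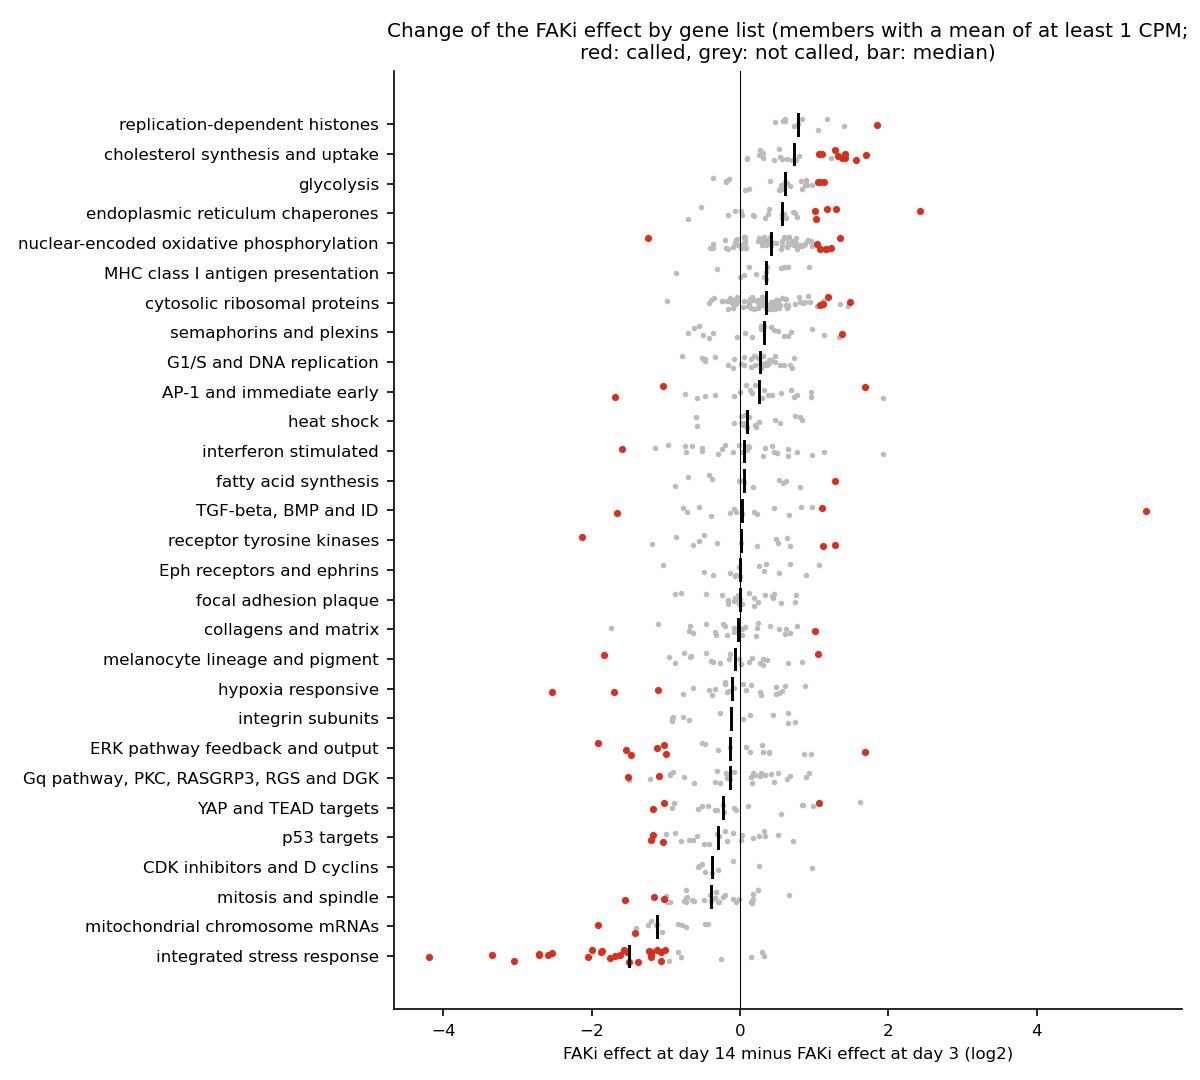
Interaction (log2, FAKi effect at day 14 minus day 3) of each gene with a mean of at least 1 CPM, by gene list, with called genes in red, the others in grey and the median of those plotted as a bar. The stress response list lies furthest to the left, with 26 called genes, and the cholesterol list near the top has 9 called genes to the right of 0, while most lists are centred near 0.

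The change of the effect also moved with transcript composition. Across 12569 genes with a mean of at least 5 CPM, the correlation of the interaction with GC content was 0.51 and with log2 transcript length -0.30, as a description across genes, which share libraries and are not independent. The GC correlation was -0.44 for the day 3 effect and 0.27 for the day 14 effect. From the bin of 34% to 38% GC to the bin of 62% to 66% the median interaction went from -0.48 to 0.53, the median day 3 effect from 0.33 to -0.36 and the median day 14 effect from -0.18 to 0.18. The genes that reversed to higher had a median GC content of 60.3% and a median length of 2034 bases, and those that reversed to lower 39.8% and 4954 bases, so the 2 reversed classes differed in composition. The stress response list had a median GC content of 52.6%, against 48.3% over all genes. With that correction for length and GC content, added after seeing the data, 524 genes were called, of which 383 were among the 1104, with 235 reversed, 171 grown and 118 faded, and 25 of the 36 stress response genes and 8 of the 24 cholesterol genes were called in the directions given above. How much of the relation with GC content and length comes from the libraries and how much from the cells was not tested.

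**Figure D5:**
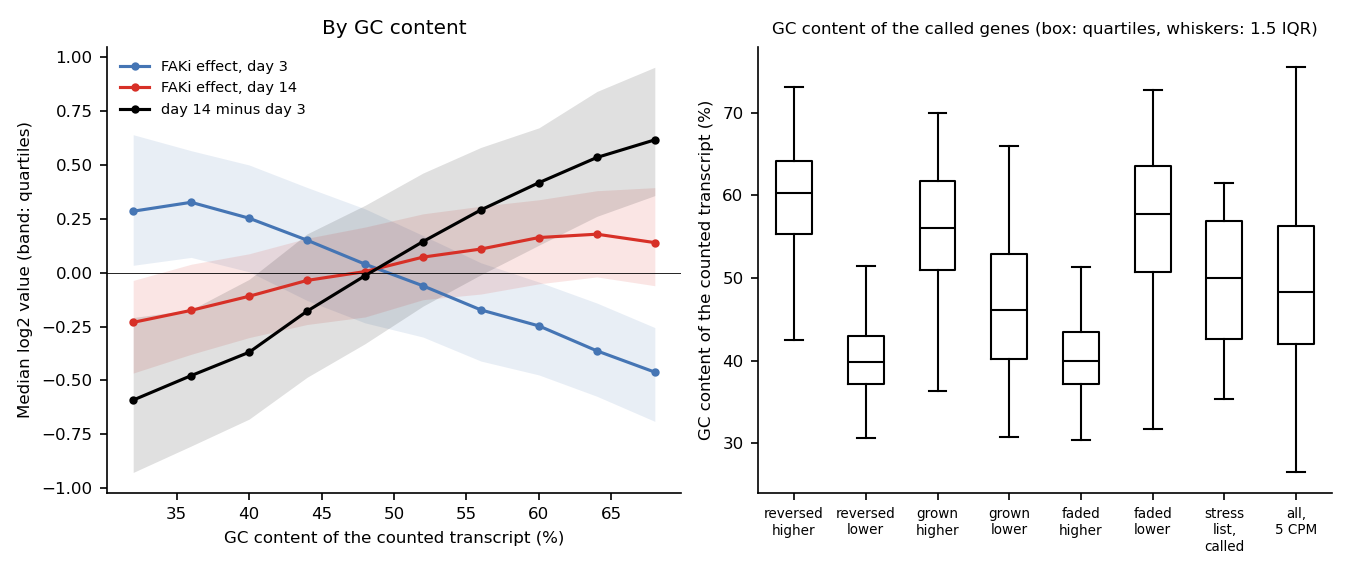
Left, median FAKi effect at day 3 (blue), at day 14 (red) and their difference (black) by GC content of the counted transcript in bins of 4 percentage points, with quartile bands, for genes with a mean of at least 5 CPM. Right, GC content of the 6 classes of called genes, the called stress response genes and all genes with at least 5 CPM (boxes are quartiles), in which the class reversed to higher has a median of 60.3% and the class reversed to lower 39.8%.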

How the data were processed

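RNA of 92.1 cells treated with FAKi or DMSO was sequenced as stranded libraries, and the authors deposited 1 table of raw read counts per gene, made per the file header with HOMER (exons of GENCODE 39 on hg38, condensed to 1 transcript per gene, no strand option in the command). Submitters' processing notes also name Trim Galore, FastQC 0.11.8, STAR 2.5.3a and DESeq2. The table lists 61533 genes, 17687 without a count, and column names were matched to the sample labels. Genes with at least 20 counts over the 12 libraries (25523) were tested with edgeR 4.0.16 (R 4.3.3, TMM scaling, quasi-likelihood, 4 groups, no block), two-sided and Benjamini-Hochberg adjusted. Genes called had to reach an adjusted p of 0.05 or less and a change over 1 on the log2 scale in either direction. Values in CPM are TMM-scaled with these 12 libraries. Classes used the unadjusted p (0.05) of each day's effect in the same fit. Days 7 and 21 were fitted over 24 libraries. The alternatives were other scalings and filters, DESeq2 1.42.0, limma 3.58.1 voom, thresholds, replicate blocks, thinning, removal of mitochondrial genes and leaving out each library. The samples, gene lists and named genes were chosen with earlier results of these data known. Genes were named as the 6 calls of smallest p per class and up to 4 per list, at a mean of at least 5 CPM, besides 11 genes chosen by name, *PTK2* and *GNAQ*, and other members were named after their values were seen. A few genes are not reported here by name. On simulated data with 200 genes of at least 5 CPM changed by 2 on the log2 scale in the FAKi day 14 libraries, 198 (99%) were recovered with 11 false calls among 24933 genes. The simulated counts were drawn independently around a common mean per gene. They lacked the differences between libraries in GC content, length and mitochondrial share, so these rates do not carry over to the calls reported here. Transcript GC content was read from GENCODE 44, which matched 99.6% of counted transcripts, and promoter sequences are from RefSeq (GRCh38.p14). The depth of 13135695 to 43651551 counts gives 3 counts a value of 0.0687 to 0.228 CPM, and these limits cover counting error only.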

Additional observations from a re-analysis of the deposited data

Results flagged for a closer look

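The FAKi effect differed between the 2 days, by the test of the interaction itself (edgeR quasi-likelihood test, Benjamini-Hochberg adjusted), for 1104 genes, and the following values are the interactions (FAKi effect at day 14 minus day 3, log2, n = 3 per group) of the genes named by rule that passed. Each passed both thresholds. In the stress response list they were *SLC7A11* -4.19, *ASNS* -3.35, *NUPR1* -2.72, *CTH* -2.72, *CHAC1* -2.59, *STC2* -2.53, *PSAT1* -2.05, *ATF3* -1.69 and *SESN2* -1.21, all with a lower level under FAKi at day 14. In the ERK list the lower ones were *ETV4* -1.92, *ETV1* -1.54, *ETV5* -1.48 and *DUSP6* -1.03, among mitochondrial chromosome mRNAs *MT-ATP8* -1.91 and *MT-ND6* -1.41, and in the mitosis list *CENPE* -1.55, *CENPF* -1.16 and *TOP2A* -1.03.

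In the direction of a more positive effect, the cholesterol genes were *SQLE* 1.7, *DHCR7* 1.41 and *MSMO1* 1.31 and the endoplasmic reticulum genes *SDF2L1* 2.42, *SELENOK* 1.29, *CRELD2* 1.17 and *PDIA4* 1.01. The glycolytic enzymes were *ENO1* 1.14, *TPI1* 1.08 and *LDHA* 1.04, the respiratory chain subunits *NDUFB2* 1.34, *ATP5MC1* 1.22 and *COX8A* 1.04 and the ribosomal proteins *RPS18* 1.48, *RPL10* 1.11 and *RPL13* 1.08. Of the other genes, those that reversed to higher were *H2BC12* 1.84, *SCARB1* 1.52, *FLNA* 1.51, *ACTB* 1.5, *MFSD12* 1.41 and *PLXND1* 1.37 and those that reversed to lower *PMAIP1* -2.23, *DDR2* -2.14, *XPOT* -1.74, *UQCRB* -1.24, *GADD45A* -1.17 and *DLC1* -1.03. The effect grew upward for *EGR1* 1.69, *SHB* 1.68, *DYNC2I2* 1.46, *FASN* 1.28, *PCSK7* 1.2, *HIP1R* 1.15, *ID3* 1.1, *CCN1* 1.06 and *PMEL* 1.05 and downward for ENSG00000284707 -3.26, ENSG00000288656 -2.81, *VEGFA* -1.7, *EMCN* -1.45, *PDK1* -1.11, *PLCB4* -1.1 and *BTG2* -1.04. It faded from lower for ENSG00000212695 2.09, *TSPO* 1.65, *B3GAT3* 1.44, *TMEM132A* 1.39, *FGFR4* 1.28, *C8orf82* 1.17, *FGFR3* 1.12, *ADAM15* 1.03 and *COL18A1* 1.01, and from higher for *DCT* -1.84, ENSG00000259828 -1.57, *DGKI* -1.51, *SNAI2* -1.28, *HMGB2* -1.19, *HMMR* -1.14 and *UACA* -1.09. With 3 libraries in a group, single libraries far from their group could not be called by the range test used here for 4 to 10 samples.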

How the results depend on the processing

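The number of genes with a changed effect was 1131 with RLE and 1134 with upper quartile scaling, where 47.7% and 47.6% of calls were in the positive direction against 51.4% with TMM. Counts of reversed, grown and faded genes that moved by over 1.5 times were as follows. With no count filter 572 genes had faded, with all 27 libraries in a single fit 403 had grown, and with DESeq2 518 had faded. With limma voom and sample quality weights there were 2322 changed, 841 reversed, 410 grown and 1019 faded genes. With the adjusted p alone these were 2180, 898, 573 and 709, and at an adjusted p of at most 0.01 they were 368, 258, 83 and 27. With the length and GC correction, chosen after seeing the data, they were 524, 235, 171 and 118. Leaving out 1 library each gave 550 to 2787 changed, 297 to 970 reversed, 146 to 374 grown and 78 to 1433 faded genes, and the highest counts of changed and faded genes were without DMSO day 3 replicate 1 and the lowest without FAKi day 3 replicate 2. The cause was not tested. The stress response list had 20 (all 27 libraries) to 28 (adjusted p alone) genes called lower, and 0 higher, over these alternatives. Across the named genes and alternatives, 2171 values kept their direction and side of the threshold, 270 kept the direction only, 2 newly passed and 12 turned, and those 12 belong to genes that were not called. Of the 78 named calls, 31 held in all 27 alternatives, and the length and GC correction ended 40. *EPHA4* was at 0.053 with voom, 0.22 with the length and GC correction, and from -0.23 to 0.18 over the fits without 1 library, with 5 above 0. *GNAQ* and *PTK2* were at 0.16 and 0.076 with that correction, *RGS2* ranged from -0.11 to 0.53 and *ID2* from -0.18 to 0.043 over the fits without 1 library, and *ID2* was also at 0.02 without DMSO day 14 replicate 1. With the replicate number as a block over both days 888 genes were called, and with a replicate block within each day 1090. Libraries with the same number did not deviate together (correlations of -0.42 to 0.14, 1 of 12 over 0.1). Some with different numbers correlated more, such as DMSO day 3 replicate 3 with DMSO day 14 replicate 1 (0.46). With 3 libraries per group and such differences between libraries, these values cannot show whether the number pairs them. Depth limits genes of few counts, since 3 counts are worth up to 0.228 CPM.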
